A study of Caenorhabditis elegans with 2 samples.

Results

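The subject is dmd-8, the gene of the protein whose DNA binding was measured, with 5 genes around it on chromosome V (ce11): phf-10, nhr-15, abt-4, wago-10 and atg-9. These 6 of the 19973 nuclear protein-coding genes were taken by name and position, in a window from 300001 to 365000. The locus was selected on its peaks in these lists and their signal values, so the counts and values below describe it and no test was made on them. Chromatin immunoprecipitation and sequencing was done on whole Caenorhabditis elegans L4 larvae of strain OP775, 48.5 hours old, grown from L1 larvae that were starved after bleaching. Their genotype was wgIs775(dmd-8::TY1 EGFP 3xFLAG; unc-119(+)); unc-119(tm4063), so the tagged dmd-8 was an integrated transgene beside the worms' own copy, with unc-119(+) carried along. The labels describe a precipitation with an antibody against GFP, although their antibody field names dmd-8, in 2 biological replicates of this single strain. No second line and no untagged worms were analysed here, and the control's own data were not used.

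DMD-8 belongs to the DM domain proteins, zinc-binding transcription factors named after Doublesex of the fly and MAB-3 of the worm and known for roles in sexual development. A tagged transgene of this kind brings a second copy of the gene and of some sequence around it into the genome. Reads from that copy and from the chromosomal copy carry the same sequence, so in these lists the 2 copies cannot be told apart. The sources used here do not give the ends of the inserted piece.

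The authors' lists were used at 2 levels. Thresholded lists hold the peaks that passed the irreproducible discovery rate (IDR), a measure of how well peak ranks repeat between compared lists, and ranked lists hold all candidate peaks with their IDR. The conservative list, from both replicates, had 1537 peaks and the other list of both replicates, here called the combined list, 1556. The lists of replicate 1 and replicate 2 had 629 and 545. The pooled ranked list, in which the conservative peaks of the window are found with their IDR, had 95232, and the ranked lists of replicates 1 and 2 had 82083 and 72371. The signal value is that of the authors' peak caller, has no fixed unit and is not scaled between lists, so replicates were set side by side by the percentile of a peak within its own ranked list. Read depth is unknown.

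Sequence at the summits of the 7 conservative peaks of the window shows what lies under them, and the start of dmd-8 is given beside them because it had no peak. Each line holds the reference sequence (RefSeq, ce11), 5′ to 3′. The first 4 are on the plus strand, the direction of nhr-15, and the other 4 on the minus strand, the direction of abt-4 and dmd-8. Capitals mark bases of annotated exons of protein-coding transcripts.
Between phf-10 and nhr-15, chrV:312119-312218: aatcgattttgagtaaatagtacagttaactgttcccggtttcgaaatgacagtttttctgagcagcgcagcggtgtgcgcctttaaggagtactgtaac
First intron of nhr-15, chrV:312936-313035: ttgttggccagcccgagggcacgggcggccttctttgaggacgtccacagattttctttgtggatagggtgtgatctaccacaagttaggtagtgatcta
First intron of nhr-15, chrV:317067-317166: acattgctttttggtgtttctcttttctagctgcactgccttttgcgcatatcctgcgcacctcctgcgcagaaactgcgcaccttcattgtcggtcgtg
First intron of nhr-15, chrV:318551-318650: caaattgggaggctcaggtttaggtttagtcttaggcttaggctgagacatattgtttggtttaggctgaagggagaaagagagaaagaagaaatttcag
Exon 14 of abt-4, chrV:325161-325260: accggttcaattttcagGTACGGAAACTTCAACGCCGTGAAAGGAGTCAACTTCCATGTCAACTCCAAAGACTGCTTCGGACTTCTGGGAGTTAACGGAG
Exon 6 of abt-4, chrV:327747-327846: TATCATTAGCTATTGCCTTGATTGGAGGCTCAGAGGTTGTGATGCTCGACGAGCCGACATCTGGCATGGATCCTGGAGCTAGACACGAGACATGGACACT
Exon 5 of abt-4, chrV:328551-328650: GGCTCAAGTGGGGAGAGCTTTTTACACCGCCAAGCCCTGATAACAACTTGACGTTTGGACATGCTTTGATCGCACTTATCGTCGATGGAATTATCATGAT
Start of dmd-8, chrV:336401-336550: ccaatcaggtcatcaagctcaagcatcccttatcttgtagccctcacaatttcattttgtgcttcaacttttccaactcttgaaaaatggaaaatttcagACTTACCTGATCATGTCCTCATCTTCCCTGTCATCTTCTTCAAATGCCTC

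High peaks were listed before nhr-15, in its first intron and in exons of abt-4, with low ones between them, and within the 5′ part of abt-4 began a stretch without any listed candidate peak that holds dmd-8. At a looser limit the raised signal also took in the 5′ part of phf-10, where its first peak rested on replicate 1. Whether the signal went on across dmd-8 cannot be read from the lists used here. In the conservative list the window had 7 summits in 65 kb, where 0.996 would lie at the density of the nuclear genome, a ratio of 7.03 (exact Poisson 95% interval of the count 2.81 to 14.4, covering counting only). The window was chosen for these peaks and the summits lie close together, so the interval is no test against that density. All 7 fell between 312029 and 328740. They ended 5861 bp before the 3′ end of dmd-8, which is read from right to left on the chromosome. Of the 1537 conservative summits, the summit at 312169 was the single one to start a 20 kb stretch with 7 conservative summits (0.0651%), and no stretch of that length held more. The median over all summits was 1. The length of 20 kb was chosen after these peaks had been seen, so the share does not measure how rare such a locus is.

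**Figure D1:**
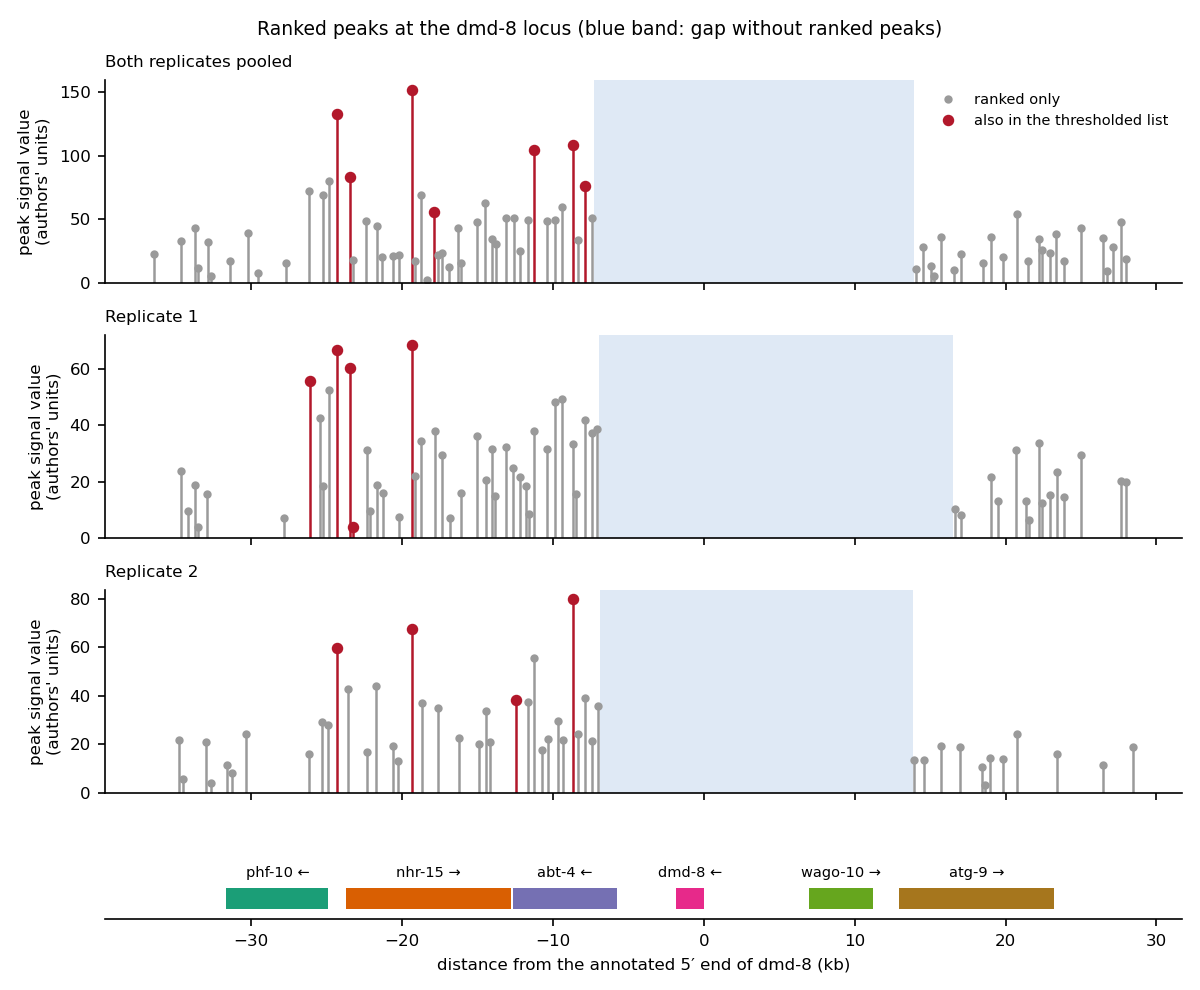
Ranked peaks of the window by signal value in the authors' units, in the pooled and the 2 replicate ranked lists, against the distance from the annotated 5′ end of dmd-8 in kb. Red points are peaks also in the matching thresholded list, the blue bands are the gaps without ranked peaks, and bars below are the 6 genes with the arrow in the direction of reading. The 7 red points of the pooled panel all lie left of the gap that holds dmd-8 and wago-10.

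Over the gene bodies, 2 of the 6 genes had a conservative peak by an overlap of at least 1 bp, nhr-15 and abt-4 with 3 each. Over all nuclear protein-coding genes the share with a conservative peak was 4.29%, and 0.1% (20 genes) had 3 or more. The highest number was 5, over tos-1, and the next genes by this count, then by name, were daf-16, dhc-4, gei-4 and mnk-1 with 4 each. Over phf-10, dmd-8, wago-10 and atg-9 no conservative peak lay. In the pooled ranked list at an IDR of 0.05 or less, 3 of the 6 genes had a peak, phf-10 with 1, nhr-15 with 5 and abt-4 with 4, against 13% of all genes. The peak counted for phf-10 overlapped only its 5′ end, with the summit beyond the gene. At an IDR of 0.01 or less 2 genes had a peak, nhr-15 and abt-4 (background 4.34%), and at 0.001 or less only nhr-15 (1.16%). With any ranked peak, whatever its IDR, 4 of the 6 were covered, all but dmd-8 and wago-10 (75.1%). In the combined list nhr-15 and abt-4 were covered (background 4.46%), by 4 peaks over nhr-15 and 2 over abt-4.

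The gene dmd-8 (WBGene00020708) lies on V from 334601 to 336450 on the minus strand, with 4 exons in 1850 bp. It had 0 peaks in the conservative, combined, replicate 1 and replicate 2 lists and 0 in each of the 4 ranked lists. The nearest peak was 5861 bp away in the conservative list, 6718 bp in the replicate 2 list and 17350 bp in the replicate 1 list. The gene wago-10 (WBGene00020707, 343428 to 347640, plus strand), which codes for an Argonaute protein of the worm-specific group that works with small RNAs, likewise had 0 peaks in all 8 lists. Its nearest conservative peak was 14688 bp away.

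Both genes, 2 of the 6, lay whole in a stretch without any pooled ranked peak that ran from 329163 to 350379, 21217 bp long. It started 5438 bp left of dmd-8 and ended 13929 bp right of it. The other ranked lists had it too, with 23479 bp in the replicate 1 ranked list (329482 to 352960), 20734 bp in the replicate 2 ranked list (329552 to 350285) and 21659 bp in the ranked list behind the combined list. Whole in a stretch of 10 kb or more lay 22.2% of all protein-coding genes (4431). The stretch also held 1563 bp at the 5′ end of abt-4 (22.5% of the gene) and the first 995 bp of atg-9 (9.68%). So the annotated 5′ ends of 4 of the 6 genes, abt-4, dmd-8, wago-10 and atg-9, lay where the lists used here had no candidate peak, against 27.7% of all genes with their 5′ end in such a stretch. All 4 ends lie in the same stretch because the genes are neighbours, so they are not independent cases.

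Such stretches were common in these lists. The pooled ranked list had 1577 of 10 kb or more between neighbouring peaks on the nuclear chromosomes, which made up 31.1% of their length, and 424 were at least as long as the one over dmd-8. The distances fell into 2 ranges, since the median over all was 380 bp, and only 66 lay from 5 kb up to 10 kb, with a sharp rise in number at 10 kb. In the ranked lists of replicates 1 and 2, 145 and 311 lay in that range. Whether candidate peaks in them are missing from the lists used here was not tested.  Of the 31-base words of the stretch over dmd-8, 98.5% occurred once in the nuclear genome, against 91.3% over the whole nuclear genome. The share that the reference soft-masks was 41.9%, against 35.7%. Its GC content was 36.8%, and that of the nuclear genome 35.4%. With no candidate peak listed, the signal over dmd-8 and wago-10 has no value here, and a low signal is not shown.

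**Figure D2:**
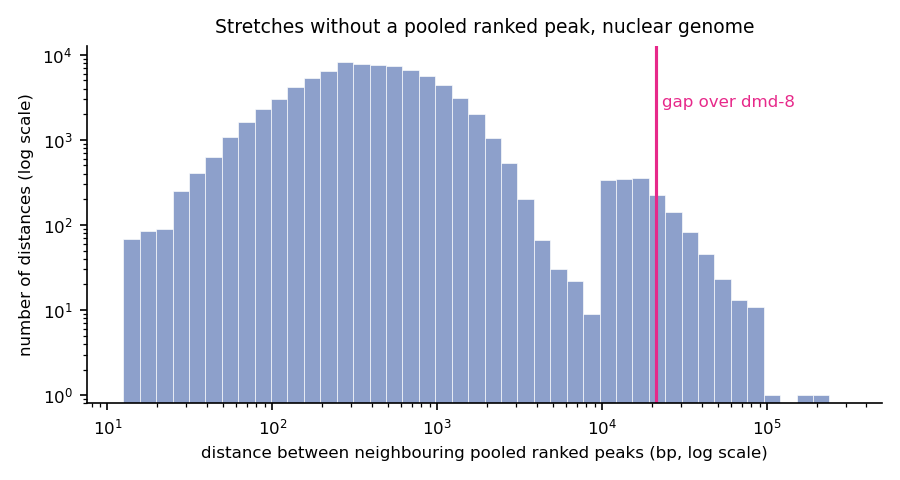
Number of stretches between neighbouring pooled ranked peaks on the nuclear chromosomes by length in bp, both axes on a log scale. The line marks the stretch of 21217 bp over dmd-8, which lies in the second hump, whose left edge is at 10 kb.

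The edges of the raised signal were read from 1 kb bins, each with the highest signal value of the pooled ranked peaks whose summit it holds. Bins above the 99th percentile of the 100275 nuclear bins (a signal of 87.0) lay in 2 stretches of the window, from 312001 to 318000 and from 325001 to 328000, when gaps of up to 5 kb were bridged. With the 95th percentile (60.1) as the limit they joined into one, from 310001 to 329000. That stretch had 8 raised bins in 19 kb, and 12 of the 3080 such stretches of the nuclear genome, this one included, had at least as many. The next stretch to the left at the 99th percentile lay outside the window, from 265001 to 268000, with 3 raised bins. The other bins of the window, 46 of the 65, held none above either limit. Among the 19 bins of the stretch, 8 were above the 95th percentile and 4 above the 99th, against 5% and 1% of all bins by construction.

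**Figure D3:**
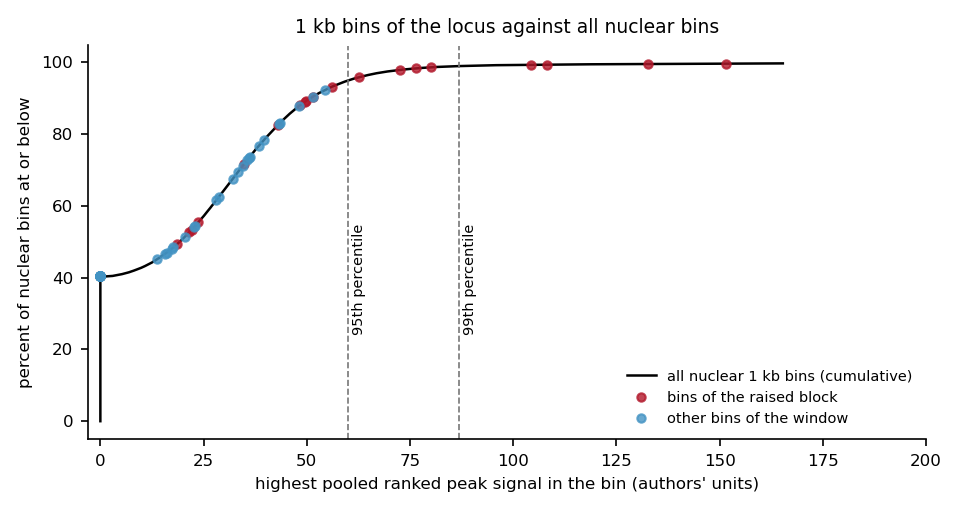
Percent of nuclear 1 kb bins at or below a given highest pooled ranked signal, in the authors' units. Points are bins of the window, red for the raised block from 310001 to 329000 and blue for the others, and bins without a summit overlie each other at 0. The 4 bins above the 99th percentile and the 4 between the limits are red.

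In bases, the raised block, set by the looser 95th percentile, ran from the first raised ranked peak at 310152 to the last ranked peak before the empty stretch, which ended at 329162. It held 37 ranked peaks in 19011 bp, 1.95 per kb, with a median signal of 48.5. Of the block's 31-base words, 87.2% occurred once in the nuclear genome, against 91.3% over the whole nuclear genome. The block's soft-masked share was 28.3% (nuclear genome 35.7%) and its GC content 38.9% (35.4%). To its left, from 300001 to 310151, the density was 0.985 per kb and the median 20.1, and the highest signal 43.3. To the right of the empty stretch, from 350380 to 365000, the density was 1.57 per kb, the median 23.5 and the highest signal 54.5. The nuclear genome had 0.95 per kb (1.38 per kb outside stretches of 10 kb or more without peaks) and a median of 27.1. The ratio of the block's median to that of all other ranked peaks was 1.79, and it was 1.87 in the replicate 1 ranked list and 1.66 in that of replicate 2. Both outer sides of the window had medians below that of the nuclear genome, and the block stood above both in density, median and highest signal. The block was bounded by its high pooled signal, so its higher highest value was set by that choice and its higher median in part. The pooled list is of both replicates, so the replicates' ratios are not independent of that choice. In the 50 kb left of the window the median was 27.5 and the highest signal 422, above the highest of the block. Ranked peaks within 20 kb of a stretch of 10 kb or more had a median of 27.1, the same to 3 digits as those farther away.

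The left edge lay within phf-10 (WBGene00018013, 304810 to 311565, minus strand), a gene of the PHD finger family, whose zinc-binding domain is known for reading histone tails. Of its 7 pooled ranked peaks, the 4 farther from its 5′ end had signals from 8.09 to 39.6. The other 3 had 72.5 at 310152 to 310431, 68.8 at 311087 to 311366 and 80.0 at 311485 to 311764, where the summit lies just beyond the gene's 5′ end. The replicates differed at the first of these, which had an IDR of 0.330 in the pooled ranked list. Replicate 1 had it in its thresholded list with a signal of 55.7, at the 99.1st percentile of its ranked list and an IDR of 0.00388. Replicate 2 had a ranked peak there of 16.0, at the 41.9th percentile, with an IDR of 0.771. The start of the raised signal at 310152 thus rests on replicate 1. At 311087 the order was the other way, with the 57.3rd percentile in replicate 1 (18.4) and the 89.1st in replicate 2 (29.4).

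The peak between phf-10 and nhr-15 was the second highest of the window. It ran from 312029 to 312308, and its summit lay 552 bp before the annotated 5′ end of nhr-15 and beyond that of phf-10, which is read the other way. Its signal was 133 in the conservative list (rank 324 of 1537), 66.6 in replicate 1 (99.4th percentile) and 59.8 in replicate 2 (99.3rd percentile), with an IDR of 0.000703. It was in all 4 thresholded lists.

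The gene nhr-15 (WBGene00003614, 312721 to 323650, plus strand) codes for a nuclear hormone receptor, a class of transcription factors many of which bind small lipophilic ligands. It had the highest peak of the window, from 316977 to 317256, with a signal of 152 (rank 236 of 1537) and an IDR of 0.00059. Replicate 1 gave 68.5 and replicate 2 gave 67.3, each at the 99.5th percentile of its ranked list. Like the peak before the gene it was in all 4 thresholded lists, and these were the only peaks of the window of which this holds.

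Both other conservative peaks of nhr-15 lay in the same first intron. The peak from 312846 to 313125, with its summit 265 bp inside the gene, had a signal of 82.9 and an IDR of 0.0014. Replicate 1 held it at 60.2 (99.3rd percentile, IDR 0.00187), while replicate 2 held it at 42.7, a high value in its list (98.2nd percentile) but with an IDR of 0.769. The peak from 318461 to 318740 had a signal of 56.2 and was in neither replicate's own thresholded list, although both ranked it high, at the 96.2nd percentile (38.1) and the 95.3rd (35.0).

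That peak was also the one nearest the limit of the conservative list, with an IDR of 0.009996. Its neighbour from 318661 to 318940 was left out with an IDR of 0.010007 and a signal of 21.9, and overlapped the same peak of each replicate. The annotated snoRNA gene F33E11.7 (318954 to 319050), inside that intron of nhr-15, began 353 bp from the summit of the listed peak. It was the nearest gene of a tRNA, snoRNA or snRNA to all 7 conservative summits, and the other 6 lay 1837 to 9551 bp from it.

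In all, 22 pooled ranked peaks lay over nhr-15, 2.01 per kb, with signals from 2.79 to 152. From 319448 on it had 8 ranked peaks with signals from 12.5 to 62.6 and none in the conservative list. The combined list placed 2 peaks there, from 322249 to 322528 (signal 34.8, rank 1514 of 1556) and from 322514 to 322793 (30.5, rank 1515), with IDR values of 0.00287 and 0.00286 in the list's own ranked list and of 0.116 and 0.314 in the pooled ranked list. A listed peak could thus have a low signal, as in the replicate 1 list from 313069 to 313338 (signal 3.80, at the 3.66th percentile, IDR 0.00188), which overlapped the strong peak beside it.

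The gene abt-4 (WBGene00000022, 323777 to 330725, minus strand) codes for a transporter of the ATP-binding cassette family, proteins that move lipids and other substrates across membranes. All 3 of its conservative peaks had their summit in an exon. The peak in exon 14, from 325071 to 325350, had a signal of 104 (rank 530) and an IDR of 0.00335. It was at 37.9 in replicate 1 (96.1st percentile) and 55.5 in replicate 2 (99.2nd), and in neither replicate's own list.

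The peak in exon 6, from 327657 to 327936, had a signal of 108 (rank 497) and an IDR of 0.00544. Here replicate 2 was the higher, with 79.7, at the 99.6th percentile and in its own list, its highest value over the 6 genes. Replicate 1 had 33.4, at the 93.0th percentile, with an IDR of 0.157. The third, in exon 5 from 328461 to 328740, had a signal of 76.4, with 41.7 in replicate 1 (97.5th percentile) and 38.9 in replicate 2 (97.2nd), and an IDR of 0.00451.

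The 11 pooled ranked peaks of abt-4 had a median of 51.4 and none was below 25.7, against a nuclear median of 27.1. In the replicate 1 ranked list the lowest over abt-4 was 8.50, at the 16.1st percentile. The last of the pooled peaks, from 328883 to 329162, had a signal of 51.4, and after it the empty stretch began. That peak's bin was below the 95th percentile limit of 60.1, and the bin before it, at 76.4, below the 99th percentile limit of 87.0, while both were above the medians of the outer sides. Each replicate had its last ranked peak there slightly farther right, with a signal of 38.8 in replicate 1 and 36.0 in replicate 2.

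**Figure D4:**
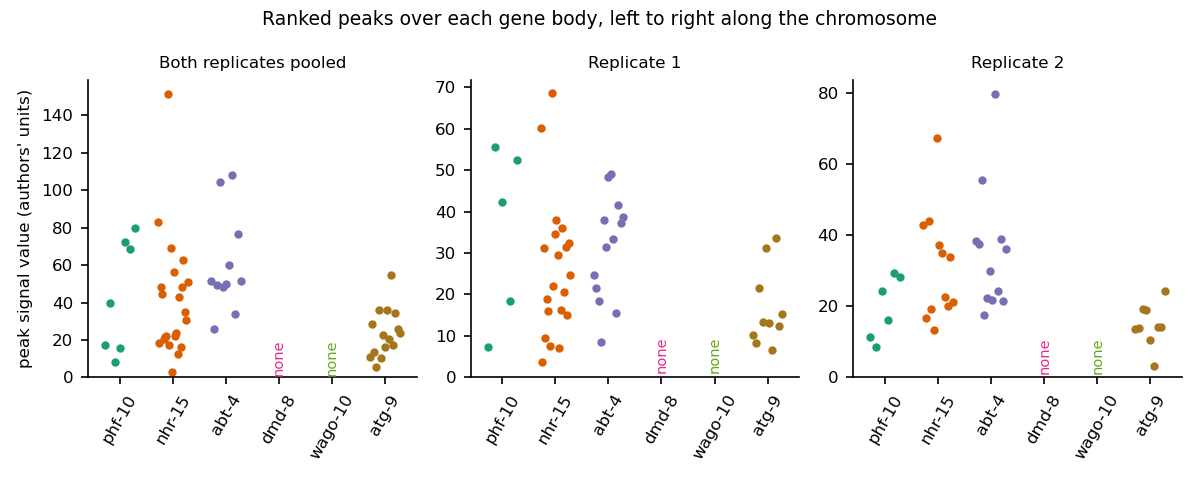
Signal value, in the authors' units, of each ranked peak over the body of each of the 6 genes, in the pooled, replicate 1 and replicate 2 ranked lists, with peaks in order along the chromosome from left to right. No ranked peak lay over dmd-8 or wago-10, and nhr-15 had the highest value in the pooled and replicate 1 lists, abt-4 in the replicate 2 list.

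On the far side, atg-9 (WBGene00020706, 349385 to 359658, plus strand) codes for the multi-pass membrane protein of autophagy, known for supplying membrane to the growing autophagosome. It had 15 pooled ranked peaks, 1.46 per kb, with signals from 5.72 to 54.5 and a median of 22.8. The highest was at the 91.7th percentile of the pooled list and the lowest IDR was 0.075. No thresholded list held a peak over it, and the nearest conservative peak was 20645 bp away. The highest value over atg-9 was 33.7 in replicate 1 and 24.3 in replicate 2, at the 93.3rd and 77.4th percentile.

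The order of the genes by highest pooled signal was nhr-15 (152), abt-4 (108), phf-10 (80.0) and atg-9 (54.5), with dmd-8 and wago-10 without a value. The pooled value of phf-10 is that of the peak that overlaps its 5′ end with the summit beyond the gene. In replicate 1 it was nhr-15 (68.5), phf-10 (55.7), abt-4 (49.1) and atg-9 (33.7). In replicate 2 it was abt-4 (79.7), nhr-15 (67.3), phf-10 (29.4) and atg-9 (24.3). The order of nhr-15, abt-4 and phf-10 thus changed between replicates, and atg-9 was the lowest of the 4 in both.

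Of the 37 pooled ranked peaks, 35 overlapped a replicate 1 ranked peak, 29 a replicate 2 ranked peak and 28 both (94.6%, 78.4% and 75.7%). Over all pooled ranked peaks the shares were 76.5%, 66.5% and 53.9%. The block was bounded by high signal in the list of both replicates, so larger shares can follow from that choice. The median percentile of the overlapping peaks was 90.9 in replicate 1 and 89.9 in replicate 2. At or above the 95th percentile were 12 in replicate 1 and 13 in replicate 2, and 7 in both. By part, the 4 peaks at phf-10 and before nhr-15 had a median percentile of 99.1 in replicate 1 and 88.1 in replicate 2. Over nhr-15, with 22 of the 37 peaks, the order was the other way, with medians of 79.6 and 94.4. Of these 22 peaks, 14 overlapped a ranked peak of both replicates. Over abt-4 the medians were 93.0 and 93.2. Neighbouring ranked peaks can overlap the same replicate peak, so these are not independent values.

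**Figure D5:**
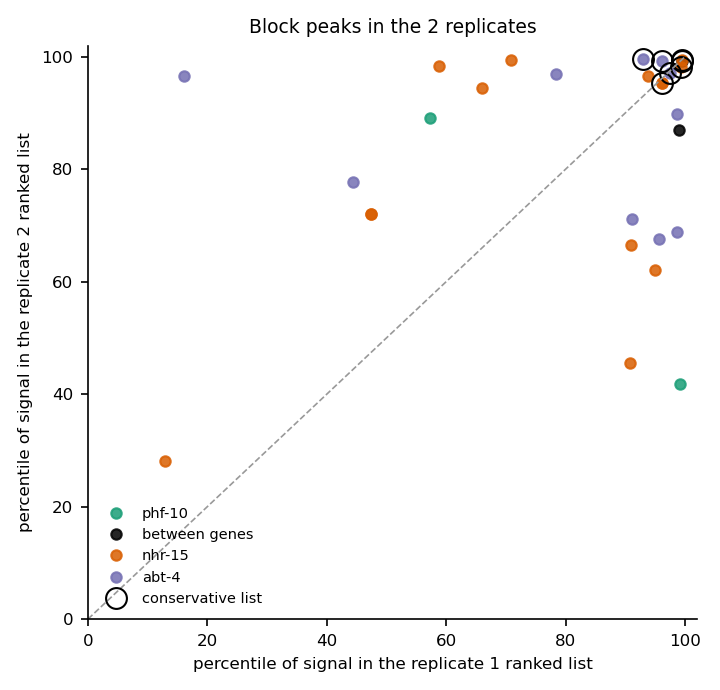
Percentile of the signal in the replicate 1 ranked list against that in the replicate 2 ranked list for the 28 block peaks that overlap a ranked peak of each. Colours give the gene that holds the middle of the peak, rings mark the 7 peaks of the conservative list, and the dashed line is equality. Among the ringed peaks the lowest percentile is 93.0 in replicate 1 and 95.3 in replicate 2, each at a different peak.

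The replicates' own thresholded lists shared the peak before nhr-15 and the highest peak of its first intron. They differed in how far they reached at each end of the block. The 5 peaks of replicate 1 lay from 310184 to 317251, over phf-10, before nhr-15 and over nhr-15, and none lay over abt-4. The 4 peaks of replicate 2 lay from 312009 to 327883, and 2 of them were over abt-4, from 323859 to 324098 (signal 38.5) and from 327644 to 327883. So 2 of the 6 genes were covered in each list, phf-10 and nhr-15 with replicate 1 (background 1.68%) and nhr-15 and abt-4 with replicate 2 (1.41%). With bins above the 99th percentile of each replicate's own ranked list, the raised signal of replicate 1 ran in 1 stretch from 310001 to 318000. That of replicate 2 lay in 2 separate stretches between 312001 and 328000.

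By position, 3 of the 7 summits of the window lay in exons, 3 in introns and 1 between genes (42.9%, 42.9% and 14.3%). Among the other 1530 conservative summits the shares were 24.7%, 29.2% and 46.1%, each inside the wide exact 95% interval of the window's share (9.90% to 81.6% for 3 of 7, and 0.361% to 57.9% for 1 of 7). The median GC content of the 100 bp at the summit was 48%, from 41% to 52%, against 51% for the other conservative peaks. With 200 bp it was 47.5% against 47%, and over the whole peak 45.7% against 45.4%, so the order depended on the width.

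The 7 summit sequences shared no searched motif. The core DM site, ACAATGT or its reverse complement ACATTGT, was in 0 of the 7 windows of 100 bp and in 0 of the 7 whole peaks, against 0.915% and 3.14% of the other conservative peaks. CCGCCC, or GGGCGG on the other strand, was in the intron window at 312936 (6.93% of other windows), and GAGAGA, or TCTCTC, in the intron window at 318551 (12.2%) and in 3 of the 7 whole peaks (27.7%). CAGCTG, the same on both strands, was in none (3.73%). In the printed sequence of the highest peak, at 317067, the letters TGCGCA, also the same on both strands, occur 4 times. This word was picked after the sequence had been seen. It was in 2.22% of the other conservative windows, of which none held more than 2 copies, and in 2 of the 37 ranked windows of the block.

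The other gene carried by the transgene, unc-119, had no such block at its place on chromosome III (10902641 to 10908935). It had 0 peaks in all 4 thresholded lists and 8 pooled ranked peaks with signals from 5.97 to 46.5, a lowest IDR of 0.0873 and 0 of 7 bins above the 95th percentile. Replicate 1 had 9 ranked peaks there, up to 30.6, and replicate 2 had 5, up to 31.8. This place is no control for the dmd-8 locus, because the worms' own unc-119 was the allele tm4063. Whether the unc-119(+) of the transgene has the same sequence and extent as this place was not tested. No conclusion about the transgene is drawn from these values. Among the DM domain genes, 10 of the 11 listed names were found in the annotation, and 2 of them, dmd-5 and dmd-10, had a conservative peak over the gene, 1 each, against 4.29% of all protein-coding genes. Besides dmd-8, mab-23 lay whole in a stretch of 10 kb or more without pooled ranked peaks, which makes 2 of the 10 against 22.2% of all genes.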

How the data were processed

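Chromatin immunoprecipitation of GFP-tagged DMD-8 was sequenced in 2 replicates of 1 group, and 8 peak lists on ce11 were used as deposited. Per the notes deposited with them, they derive from alignments and a control file, and the thresholded lists also from a further file of unstated content. The sources used here name no aligner, peak caller or version. Each deposited list has a signal value, a score set from the IDR and a −log10 q-value (not used). The ranked lists deposited by the authors also give a −log10 IDR, which was converted to IDR. Which ranked list belongs to the conservative list was read from the values. The ranked lists also hold 8 signal columns of the compared lists that carry no sample name and were not used. Replicate values come from each replicate's own ranked list, by the peak with most bases in common.

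The 6 genes, the window and the gene lists were chosen with earlier results of these data known. Genes are from Ensembl release 115 and sequence from RefSeq, both on the same assembly, and all peaks lay inside its chromosomes. Positions are 1-based. Named genes were the 6 members, genes that hold a summit, unc-119, genes at the edges of the raised bins and the 5 genes with most conservative peaks. Stretches of 10 kb or more without ranked peaks, 20 kb counts and the word TGCGCA were chosen after seeing the data. Intervals are exact (Clopper-Pearson or Poisson) at 95% and cover counting only. No test was made between groups. The functions were tested on simulated data made from the pooled ranked list and recovered planted blocks, gaps and gene counts in 20 of 20 runs. Each 1 kb bin of a planted block had a signal far above the highest of the block described here. These runs thus check that the functions work, and do not show how well the edges of such a block are found. Alternatives were other lists, limits, bins and windows. The tools were matplotlib 3.10.9, scipy 1.17.1, pandas 2.3.3 and numpy 2.4.6, run in Python 3.11.15.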

Additional observations from a re-analysis of the deposited data

How the results depend on the processing

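The window's 7 conservative summits became 2 at an IDR of 0.001 or less and 11 at 0.05 or less, and with one replicate's list 4 to 5. The ratio of density to the nuclear density was 3.59 at an IDR of 0.05 or less and 11.7 to 12.3 with 1 replicate. Its size thus depended on the list, and it was above 1 in each of the lists and limits tried. The window was chosen for its peaks in these same lists, so a ratio above 1 is not independent support. The first raised base moved to 310001 with the 95th percentile, and with one replicate ran from 310001 to 312001. The last moved to 318000 with 2 kb bins, and with one replicate ran from 318000 to 328000. The number of raised stretches was 1 with the 95th percentile, gaps of up to 10 kb or 2 kb bins, 3 with gaps of up to 2 kb, and 1 to 2 with one replicate. The ratio of medians was 2.68 over 1 kb bins, which count bins without a summit as 0. The number of covered genes was 2 in the conservative, combined and replicate lists, but these were phf-10 and nhr-15 with replicate 1 and nhr-15 and abt-4 in the others. It was 3 at an IDR of 0.05 or less, where phf-10 was covered only at its 5′ end, and 1 at 0.001 or less. The location shares, the GC content, the 0 DM cores and the length of the empty stretch stayed within 1.5 times or 1 SD in each alternative run. The planned use of the replicate signals inside the pooled ranked list was replaced by the replicates' own ranked lists, since those columns carry no sample name. No paired analysis was possible because there is 1 group. A place without a listed peak has no signal value, and shares over all genes count genes inside such stretches as without a peak.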
